A study of Mus musculus with 4 samples.

Results

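The genes described here are 39 members of the type I interferon response, listed by symbol and found among the 44788 gene rows of a count table of mouse colon RNA. All 39 were in the table, and Apol9a and Apol9b, which are near-identical copies, were summed, so 38 values were followed in each library. The table held 4 RNA-seq libraries of colon tissue from mice on the C57BL/6 background, 1 library per group. The 4 groups were wild-type (WT) mice without treatment, WT mice given AOM/DSS, and the same 2 treatments in mice labelled Card9-/-. AOM/DSS is a protocol for tumours that arise in an inflamed colon: azoxymethane (AOM), a mutagen, comes first, and then dextran sulfate sodium (DSS), an irritant of the gut lining. Per the labels' protocols, AOM was given at 10 mg/kg into the peritoneum on day 1, DSS followed 5 days later at 2% in the drinking water for 7 days, in 3 cycles, and tissue was taken on day 100. Untreated tissue is labelled day 0. Time of collection and treatment therefore cannot be told apart. The labels do not say how many mice a library holds, and the reach of the Card9 deletion is not stated in them.

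Type I interferons are cytokines that cells release when sensors detect viral or misplaced nucleic acid. They bind a receptor of the subunits Ifnar1 and Ifnar2, whose kinases Jak1 and Tyk2 activate Stat2, which joins Irf9 in a complex that binds the interferon-stimulated response element in the promoters of target genes. In the gut, type III interferons reach many of the same targets in epithelial cells through Ifnlr1 and Il10rb, and interferon gamma, acting through its own receptor, induces an overlapping set. Many members are antiviral effectors, and others are the sensors and transcription factors themselves, so the response feeds back on its own input.

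No comparison had replicates, since each group is 1 library, so no test was run, and every interval below is a 95% interval that covers counting error only. Levels are CPM (a gene's count relative to the library total), scaled between libraries by trimmed means of M-values (TMM). The libraries held 23022885 to 27706567 counts, and a member's count lay between 44 (Mx2 in WT AOM/DSS) and 26458 (Lgals3bp). Card9 itself, an adaptor of myeloid cells, was not lower in the libraries labelled knockout. Untreated, it stood at 1.75 CPM (44 counts) in WT and 3.18 CPM (69 counts) in the library labelled knockout. With AOM/DSS it stood at 5.32 CPM and 7.73 CPM. Counts per gene do not show which exons were read, so the label could not be checked from them. The word labelled is kept throughout for that reason. AOM/DSS labelled knockout was the library least like the rest, with a correlation across 18484 genes of 0.868 to 0.890 with the others, against 0.954 to 0.963 among the other 3 (description only). All 12 colon epithelium markers had counts in every library, and their summed level was 32486 CPM (untreated WT), 21555 CPM (untreated, labelled knockout), 27871 CPM (WT AOM/DSS) and 9722 CPM (AOM/DSS, labelled knockout). Muc2 and Car1 made up most of the sum in untreated WT, at 13360 and 7654 CPM. In AOM/DSS labelled knockout they stood at 905 and 28.4 CPM. Between the same libraries Cdh1 was nearly level (833 and 842 CPM) and Krt18 was higher (315 and 780 CPM). The other markers were lower. For Epcam (906 and 632 CPM), Krt8 (4324 and 3602 CPM), Krt19 (2613 and 1934 CPM) and Vil1 (889 and 482 CPM) the difference was less than 2-fold. In bulk tissue, fewer cells of a type and less RNA per cell cannot be told apart.

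What the members share outside the counts was read from their promoters. The RefSeq promoter table of the same build (GRCm38), covering 250 bases before each start site and 50 after, held 29 of the 39 members. The genes with no entry were Dhx58, Ifi27l2a, Mx1, Mx2, Oas2, Parp14, Parp9, Rtp4, Usp18 and Zbp1. The core of the interferon-stimulated response element was searched as GAAA, any 2 bases, GAAA on both strands, the reverse strand reading TTTC, any 2 bases, TTTC, and overlapping matches were each counted. It was present in 16 of 29 members (55.2%), against 3.99% of all 27025 genes with a promoter. The gamma-activated site, TTCNNNGAA, an element of genes induced by interferon gamma, was present in 5 of the 29 (17.2%) against 9.55% of all genes. The stretches below are shown because they hold the core just upstream of members from the Isg15, Ifit, oligoadenylate synthetase and antiviral effector groups. They are given 5′ to 3′ in the direction of the gene, with the matches in capitals.

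Isg15 (chr4:156200865-156200906, minus strand): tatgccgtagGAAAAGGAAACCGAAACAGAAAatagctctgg
Ifit1 (chr19:34640775-34640823, plus strand): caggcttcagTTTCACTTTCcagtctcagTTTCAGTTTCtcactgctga
Ifit3 (chr19:34583363-34583426, plus strand): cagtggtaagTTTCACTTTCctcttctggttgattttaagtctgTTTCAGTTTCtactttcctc
Bst2 (chr8:71537577-71537612, minus strand): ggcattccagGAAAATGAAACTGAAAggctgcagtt
Oas1a (chr5:120907526-120907555, minus strand): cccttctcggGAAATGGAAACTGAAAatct
Oas3 (chr5:120777715-120777744, minus strand): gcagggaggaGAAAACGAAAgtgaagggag
Rsad2 (chr12:26456553-26456582, minus strand): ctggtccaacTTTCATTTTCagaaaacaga

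In Isg15, 3 overlapping matches followed each other, in Bst2 and Oas1a 2 overlapping ones, and in Ifit1 and Ifit3 2 separate ones in the reverse direction. Of the 31 matches over 34 promoter entries of members, 27 lay upstream of the start site, and 26 of these within 160 bases of it. The map of match positions shows the same. Matches were counted per entry, and the 2 entries of Apol9a overlap, as do those of Apol9b. Each site in these genes is therefore counted under both entries. In Ddx58, Eif2ak2 and Ifih1 the matches lay only downstream of the start site. The 13 members without a match in this window were Cmpk2, Dtx3l, Herc6, Ifi35, Ifi44, Ifit2, Irf7, Irf9, Lgals3bp, Oasl1, Oasl2, Samd9l and Xaf1, which says only that these letters are not in these bases. In the WT pair the median log2 ratio of AOM/DSS over untreated was -1.96 with a match (15 values) and -1.72 without (13 values), and in the pair labelled knockout it was 1.78 and 1.52.

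**Figure D1:**
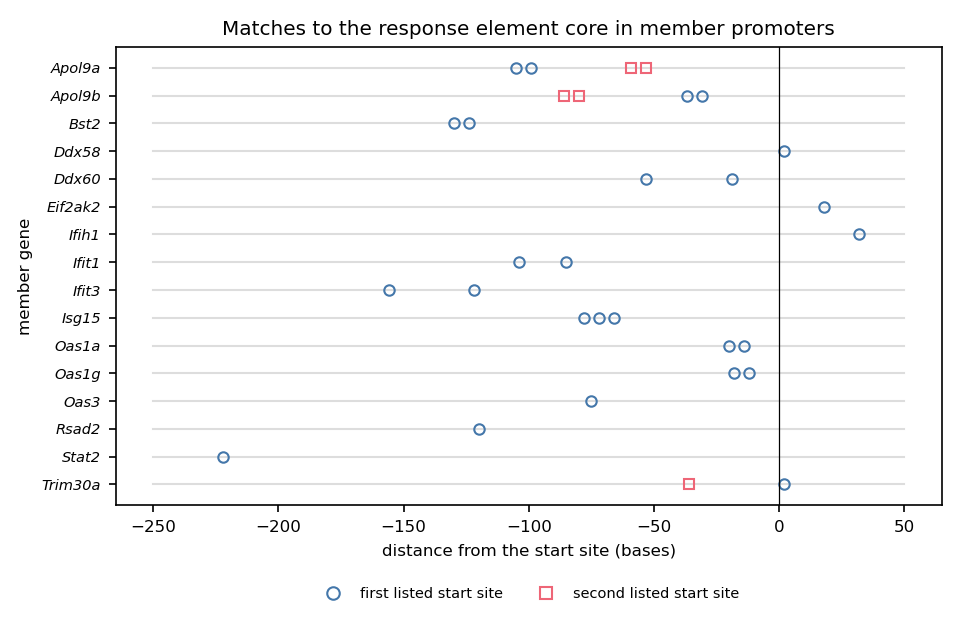
Position of each match to the response element core in the 16 member promoters that hold one, as the distance in bases of its first base from the start site (0, vertical line); circles and squares separate the start sites of genes that have more than 1 entry. Most matches sit in the 160 bases upstream, with Stat2 at 222 bases upstream and Ddx58, Eif2ak2 and Ifih1 downstream. For Apol9a and Apol9b the same sites are drawn under both start sites.

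Across the 4 libraries the members shared a single pattern. All 38 values were higher in untreated WT and in AOM/DSS labelled knockout than in either of the other 2 libraries, an arrangement found in 16.2% of 16383 genes that reached 50 counts in any library (this rule was chosen after the values were seen). The most frequent order, from low to high, was WT AOM/DSS, untreated labelled knockout, untreated WT, AOM/DSS labelled knockout, with 21 members against 5.90% of all genes. A further 11 members differed from it only in that untreated WT was the highest library. WT AOM/DSS was the lowest library for 32 members, and untreated labelled knockout for 6 (Ifit2, Oasl1, Samd9l, Eif2ak2, Ifi35 and Ddx58). Summed over members, the level was 5083 CPM in untreated WT, 1909 CPM in untreated labelled knockout, 1467 CPM in WT with AOM/DSS and 6006 CPM in AOM/DSS labelled knockout.

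**Figure D2:**
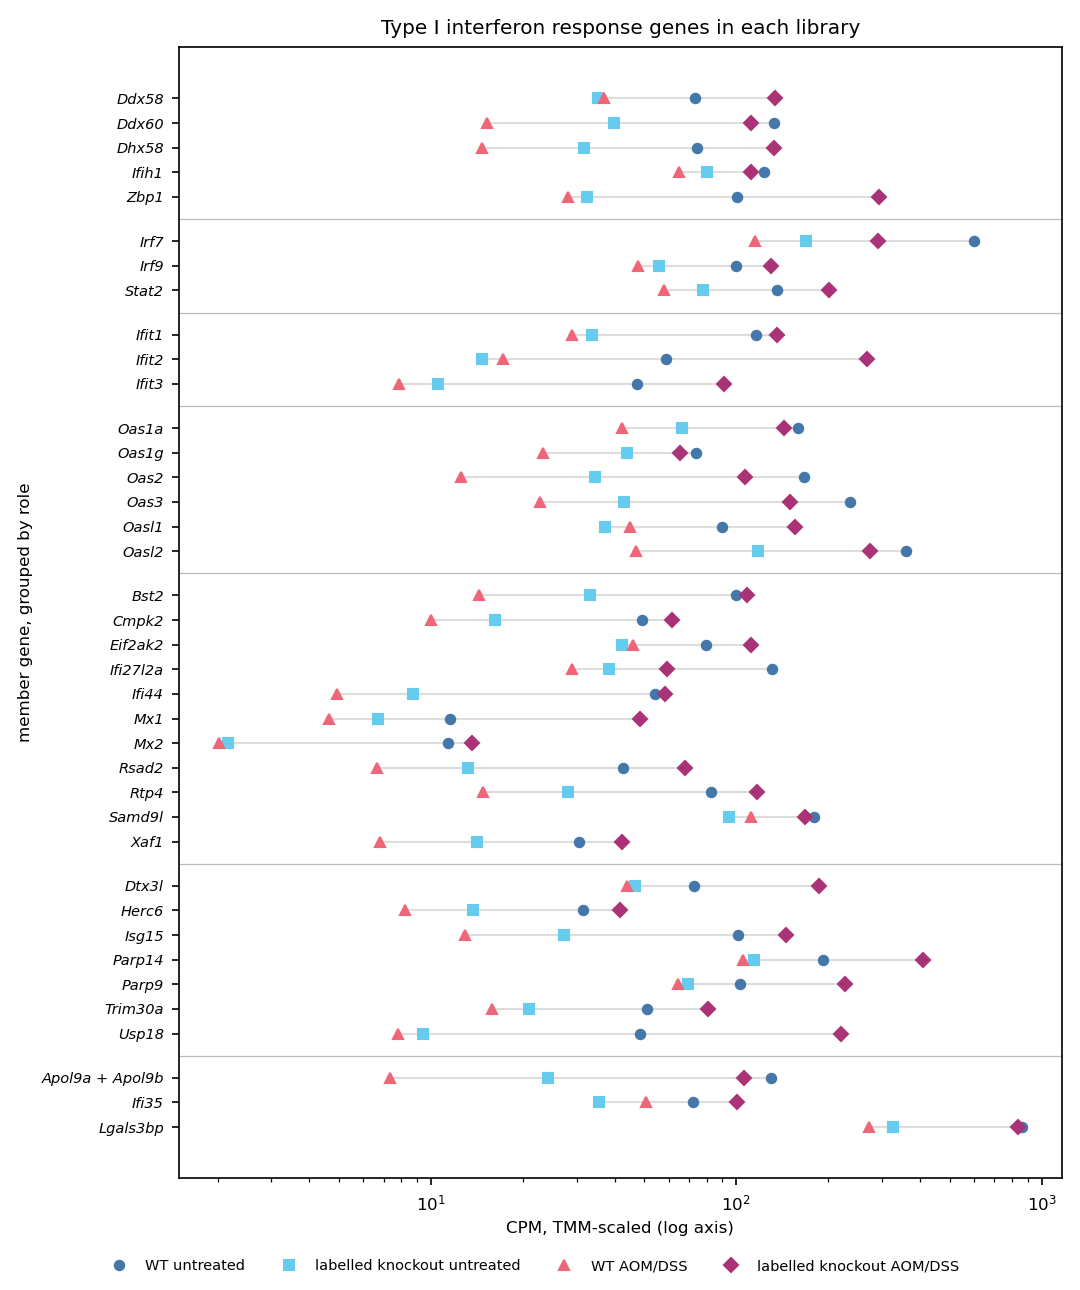
CPM of each member in each of the 4 libraries (1 point per library, log axis), with genes grouped by role and grey lines joining the lowest and highest library. The circles of untreated WT and the diamonds of AOM/DSS labelled knockout lie to the right of the other points for all 38 values.

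The first comparison, in WT tissue, asks how the response differed after the tumour protocol. Every member was lower in the AOM/DSS library, by 1.43-fold (Ifi35) to 17.7-fold (Apol9a plus Apol9b), with a median of 3.91-fold, and all 38 counting intervals lay below 1. A member was called when it was at least 2-fold apart on the log2(CPM + 1) scale and the higher library held 50 counts or more. By that rule 29 of 38 members were lower and 0 higher, where 3.88% of all 15356 genes tested were lower and 4.08% higher. The median log2 ratio was -1.93 for members and 0.02 for all genes. By role, 3 of 3 transcription factors, 3 of 3 Ifit genes, 5 of 6 oligoadenylate synthetase genes, 9 of 11 Mx and other antiviral effectors, 3 of 5 sensors and 4 of 7 genes of Isg15 conjugation, ubiquitin and ADP-ribose transfer were called lower. The 9 members not called were Ifih1, Ddx58, Oasl1, Samd9l, Eif2ak2, Dtx3l, Parp9, Parp14 and Ifi35. Ddx58 and Oasl1 lay just inside 2-fold, at log2 ratios of -0.97 and -0.98. At 4-fold, 18 members were lower and 0 higher, against 0.567% and 1.10% of all genes.

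In the pair labelled knockout, AOM/DSS went with higher levels. Every member was higher in the AOM/DSS library, by 1.40-fold (Ifih1) to 23.4-fold (Usp18), with a median of 3.52-fold and all 38 counting intervals above 1. Of the 38, 33 were called higher and 0 lower, where 14.1% of 15900 genes were called higher and 15.9% lower, and the median log2 ratio was 1.80 against 0.03 for all genes. The 5 members not called were Irf7, Oas1g, Ifi27l2a, Samd9l and Ifih1, at log2 ratios of 0.48 to 0.82. All 7 genes of the Isg15, ubiquitin and ADP-ribose group and all 3 Ifit genes were called. At 4-fold, 13 members were higher and 0 lower, against 3.94% and 4.11% of all genes.

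Between genotypes, the untreated pair sets the labels side by side without treatment. Each label is 1 library here, so the label cannot be told apart from other differences between the libraries. These include the cell type markers given below. Each member was lower in the library labelled knockout than in untreated WT, by 1.48-fold (Parp9) to 6.21-fold (Ifi44), with a median of 2.78-fold. By the size rule 28 of 38 were lower and 0 higher, against 3.37% and 4.46% of 15352 genes, with a median log2 ratio of -1.46 against -0.01. This pair shares the untreated WT library with the WT comparison above. Parp9, Parp14, Dtx3l, Ifih1, Stat2, Irf9, Mx1, Oas1g, Samd9l and Eif2ak2 were the 10 members not called. At 4-fold, 6 members were lower and 0 higher, against 0.599% and 1.05% of all genes.

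In the AOM/DSS pair the label went with higher levels. All 38 members were higher in the library labelled knockout than in WT, by 1.51-fold (Samd9l) to 28.4-fold (Usp18), with a median of 5.46-fold. By the size rule 35 were higher and 0 lower, where 11.9% of 15779 genes were higher and 12.4% lower, and the median log2 ratio was 2.28 against 0.03. Ifi35 (0.98), Ifih1 (0.78) and Samd9l (0.59) were not called. At 4-fold, 23 members were higher and 0 lower, against 3.18% and 3.57% of all genes. Both AOM/DSS libraries also stand in the comparisons with untreated tissue above, so these values are not independent of them.

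Among the sensors of viral nucleic acid, Zbp1 (chromosome 2, 173206612 to 173218923), which binds Z-form nucleic acid and can trigger cell death, had the widest range. Its level was 101 CPM in untreated WT, 32.4 CPM in untreated labelled knockout, 28.1 CPM in WT with AOM/DSS and 294 CPM in AOM/DSS labelled knockout. That is 3.58-fold lower with AOM/DSS in WT (3.28 to 3.92) and 9.09-fold higher in the pair labelled knockout (8.42 to 9.83). Ddx60, a helicase cofactor of RNA sensing, stood at 133, 39.9, 15.3 and 112 CPM in the same order of libraries. Its WT difference was the largest of the sensors, 8.70-fold lower (7.77 to 9.77). Ddx58, which encodes the RNA sensor RIG-I, stood at 73.2, 35.4, 36.9 and 134 CPM, so its 2 low libraries were nearly level. Dhx58 (LGP2, a relative of RIG-I that lacks its signalling domains) stood at 74.5, 31.7, 14.7 and 133 CPM. Ifih1 (chromosome 2, 62595798 to 62646255), which encodes the long double-stranded RNA sensor MDA5, varied least among the sensors, with 123, 79.9, 64.7 and 112 CPM and no call in any of the 4 pairs.

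Of the 3 transcription factors, 3 were called lower in the WT pair and 2 higher in the pair labelled knockout. Irf7 (chromosome 7, 141262706 to 141266481), an interferon-induced factor that drives further interferon transcription, stood at 600.1 CPM in untreated WT, 169.8 CPM in untreated labelled knockout, 115 CPM in WT with AOM/DSS and 292 CPM in AOM/DSS labelled knockout. Untreated WT was by far its highest library: it was 5.21-fold lower with AOM/DSS in WT (4.99 to 5.43), but only 1.72-fold higher in the pair labelled knockout (1.65 to 1.78). Stat2 stood at 136, 77.8, 58.1 and 202 CPM in the same order, and Irf9, which joins Stat2 in the response complex, at 99.9, 55.8, 47.6 and 130.0 CPM. For these partners the AOM/DSS library labelled knockout was the highest.

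The Ifit genes, whose products bind viral RNA ends, lie close together on chromosome 19. Ifit2 (34550694 to 34576419) stood at 59.0 CPM in untreated WT, 14.7 CPM in untreated labelled knockout, 17.2 CPM in WT with AOM/DSS and 268 CPM in AOM/DSS labelled knockout. It was 18.2-fold higher with AOM/DSS in the pair labelled knockout (16.3 to 20.4) and 15.6-fold higher than in WT AOM/DSS (14.0 to 17.3). Ifit1 (34640871 to 34650009) stood at 116, 33.7, 28.9 and 136 CPM, so its 2 high libraries were close while those of Ifit2 were 4.53-fold apart (4.29 to 4.79). Ifit3 stood at 47.1, 10.5, 7.84 and 90.8 CPM. Of the 100-base windows of its transcripts, 31.7% also occur in those of Ifit3b, so its counts are uncertain.

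The oligoadenylate synthetase family is named for enzymes that, on double-stranded RNA, make the messenger that activates RNase L. Its members on chromosome 5 did not share 1 order of the libraries. Oas2 (120730333 to 120749853) stood at 166 CPM in untreated WT, 34.3 CPM in untreated labelled knockout, 12.5 CPM in WT with AOM/DSS and 107 CPM in AOM/DSS labelled knockout, 13.3-fold lower with AOM/DSS in WT (11.7 to 15.1). Oas3 stood at 236, 42.9, 22.8 and 149.7 CPM in the same order, 10.3-fold lower in the WT pair (9.43 to 11.4). Oasl2, a family member with ubiquitin-like domains, stood at 361, 118, 47.0 and 273 CPM. For these genes untreated WT was the highest library. Oasl1 (114923240 to 114937915) differed: it stood at 90.1, 37.1, 45.0 and 155 CPM, with AOM/DSS labelled knockout highest and WT AOM/DSS above untreated labelled knockout. Oas1a stood at 159, 66.6, 42.1 and 143 CPM and Oas1g at 73.6, 43.7, 23.2 and 65.6 CPM. They share 40.9% of the windows of Oas1a and 31.2% of those of Oas1g, so reads can be divided between them.

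Among the other antiviral effectors, Ifi44 (chromosome 3, 151730922 to 151749960), an interferon-induced protein, had the widest range of that group. Its level was 54.3 CPM in untreated WT, 8.75 CPM in untreated labelled knockout, 4.91 CPM in WT with AOM/DSS and 58.4 CPM in AOM/DSS labelled knockout, 11.1-fold lower with AOM/DSS in WT (9.09 to 13.6) and 6.68-fold higher in the pair labelled knockout (5.75 to 7.79). Its high libraries were nearly level. Bst2, which encodes tetherin, a protein that holds budding virus at the cell surface, stood at 99.7, 33.1, 14.4 and 108 CPM. Rsad2 (viperin, which makes a chain-terminating nucleotide) stood at 42.6, 13.3, 6.65 and 67.9 CPM, and Cmpk2, a nucleotide kinase, at 49.0, 16.2, 10.0 and 61.7 CPM. Both had the most frequent order of the libraries.

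The Mx genes, of the family of dynamin-like GTPases, had low counts. Mx1 stood at 11.6 CPM in untreated WT, 6.72 CPM in untreated labelled knockout, 4.63 CPM in WT with AOM/DSS and 48.5 CPM in AOM/DSS labelled knockout, and Mx2 at 11.3, 2.16, 2.02 and 13.6 CPM. For Mx2 the 2 high libraries were close, while Mx1 was 4.19-fold higher in AOM/DSS labelled knockout than in untreated WT (3.69 to 4.76). Ifi27l2a, a small interferon-induced protein, went the other way at 131, 38.3, 28.9 and 59.1 CPM, 2.21-fold below untreated WT (2.09 to 2.34). Samd9l, a growth and translation inhibitor, varied little, with 180.1, 94.5, 112 and 168 CPM and no call in any pair. Eif2ak2 (PKR, the double-stranded RNA kinase that stops translation) stood at 79.6, 42.2, 46.0 and 112 CPM. Rtp4 and Xaf1 had the order shared by most members, at 82.4, 28.2, 14.8 and 117 CPM and at 30.5, 14.1, 6.83 and 42.3 CPM.

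The group of Isg15 and enzymes around it included the largest fold between genotype labels. Isg15 (chromosome 4, 156199424 to 156200818) encodes the ubiquitin-like protein that is coupled to other proteins during the response. It stood at 101 CPM in untreated WT, 27.2 CPM in untreated labelled knockout, 13.0 CPM in WT with AOM/DSS and 145 CPM in AOM/DSS labelled knockout, and was 11.2-fold higher in the last than in WT AOM/DSS (9.94 to 12.7). Usp18 (chromosome 6, 121245906 to 121270917) removes Isg15 from proteins and also damps signalling at Ifnar2. Its levels were 48.5, 9.44, 7.79 and 221 CPM in the same order, 23.4-fold higher with AOM/DSS in the pair labelled knockout (20.4 to 27.1) and 28.4-fold higher than in WT AOM/DSS (24.4 to 33.2). These were the largest folds of any member in those pairs.

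Herc6, the mouse ligase that couples Isg15, stood at 31.6, 13.8, 8.25 and 41.7 CPM. Parp14, an ADP-ribose transferase, stood at 192, 115, 105 and 408 CPM, Parp9 at 103, 69.7, 64.6 and 227 CPM, and Dtx3l, the ubiquitin ligase that works with Parp9, at 72.9, 46.4, 43.9 and 186 CPM. These 3 genes of chromosome 16 had the same shape, with less than a 2-fold difference among the 3 lower libraries and a high AOM/DSS library labelled knockout. Parp9 and Dtx3l overlap head to head by 458 exonic bases, and since no source used here states the handling of strand, reads in that stretch cannot be assigned. Trim30a, a tripartite motif protein, stood at 50.8, 20.9, 15.8 and 80.5 CPM.

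Of the remaining members, Lgals3bp (chromosome 11, 118392751 to 118402092), a secreted glycoprotein that binds galectins, had the most counts. It stood at 862 CPM in untreated WT, 325 CPM in untreated labelled knockout, 272 CPM in WT with AOM/DSS and 835 CPM in AOM/DSS labelled knockout. Apol9a and Apol9b, interferon-induced apolipoprotein L genes on chromosome 15, stood together at 129.8, 24.2, 7.34 and 106 CPM, 17.7-fold lower with AOM/DSS in WT (15.1 to 20.9), the largest fold of any member in that pair. Ifi35, a partner of the interferon-induced Nmi, stood at 72.4, 35.4, 50.6 and 101 CPM and had the smallest WT difference.

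Corrected for gene length, over the union of annotated exons (GENCODE M21), the members' levels spanned a wide range. The length depends on which transcripts are annotated, so the ranking is approximate. For Irf7 the union was 1 block of 3776 bases that covers the whole gene, and Apol9a had 5953 bases against 1821 for its copy Apol9b. In untreated WT the highest were Lgals3bp at 303 CPM per kilobase, Ifi27l2a at 282, Irf7 at 159, Isg15 at 134 and Bst2 at 110.4. The lowest were Mx1 at 3.06, Mx2 at 3.14 and Herc6 at 3.40 CPM per kilobase. In AOM/DSS labelled knockout Lgals3bp was still highest at 293 CPM per kilobase, followed by Isg15 at 192, Ifi27l2a at 128, Bst2 at 120.0, Zbp1 at 83.4 and Usp18 at 79.2. Zbp1 and Usp18 had stood at 28.5 and 17.4 CPM per kilobase in untreated WT.

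The response to AOM/DSS thus had opposite signs in the 2 genotype labels for every member. The fold in the pair labelled knockout divided by the fold in WT ran from 2.67 for Ifih1 (2.46 to 2.91) to 146 for Usp18 (118 to 180). Its counterpart on the log2(CPM + 1) scale, the difference of the log2 ratios, had a median of 3.68 over members and -0.05 over 14873 genes. Of the 38 members, 26 were called lower in WT and higher in the pair labelled knockout, as were 0.733% of those genes. By role, the median ratio of folds was lowest for the transcription factors, at 6.04, and highest for the Ifit genes, at 51.8. The 3 transcription factors themselves ran from 4.88 to 8.94, which is a range over genes and not an interval. A difference with 1 library in each cell of the design has no replicate check, and it was not tested.

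**Figure D3:**
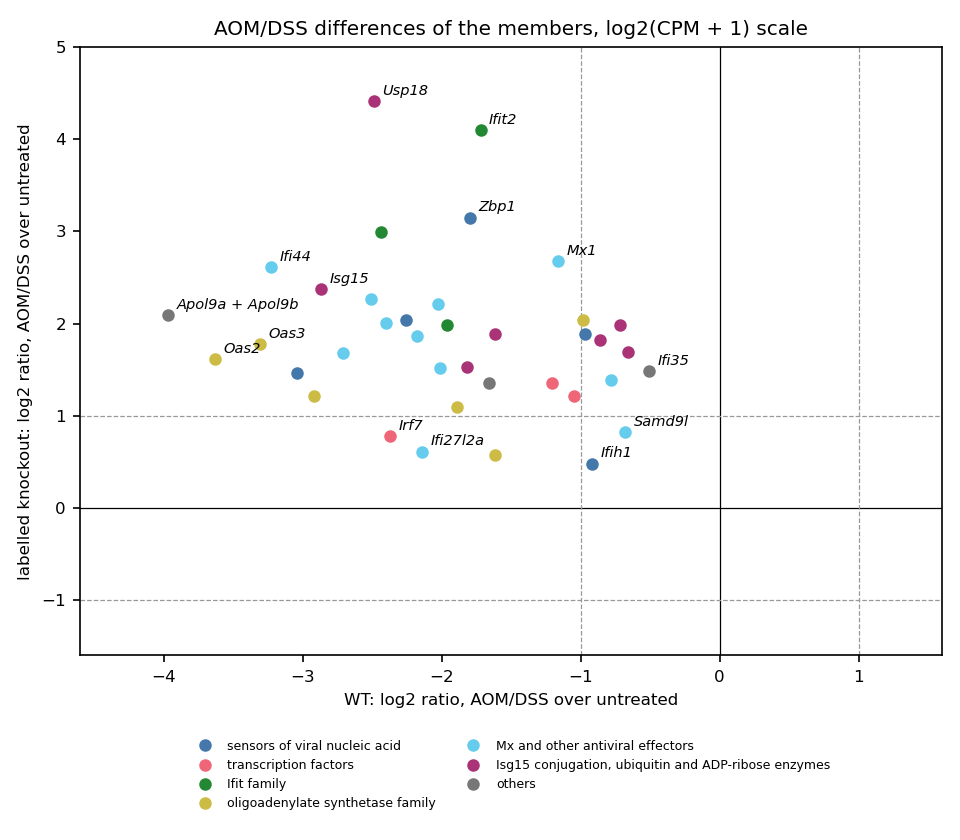
Log2 ratio of AOM/DSS over untreated for each member in the WT pair (horizontal) and the pair labelled knockout (vertical), on the log2(CPM + 1) scale, coloured by role, with dashed lines at a 2-fold difference. All 38 points lie at the upper left, with Usp18 at 4.41 on the vertical axis and Apol9a plus Apol9b at -3.97 on the horizontal axis.

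The libraries in which members were high, untreated WT and AOM/DSS labelled knockout, were also set side by side. They differ in both genotype label and treatment, so no single factor is compared, and this view was added after the values were seen. The level was higher in AOM/DSS labelled knockout for 26 members and lower for 12, where 53.2% of 16082 genes were higher, and the median ratio was 1.35. Usp18 (4.56-fold, 4.29 to 4.85), Ifit2, Mx1, Zbp1, Dtx3l, Parp9 and Parp14 were at least 2-fold higher. Ifi27l2a and Irf7 (2.06-fold, 2.00 to 2.11) were at least 2-fold lower, followed by Oas3 and Oas2 at 1.57-fold and 1.55-fold. Lgals3bp, Samd9l, Ifi44 and Bst2 were the closest, at 1.03-fold to 1.09-fold apart. Thus members differed among themselves in which of these libraries was the higher.

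**Figure D4:**
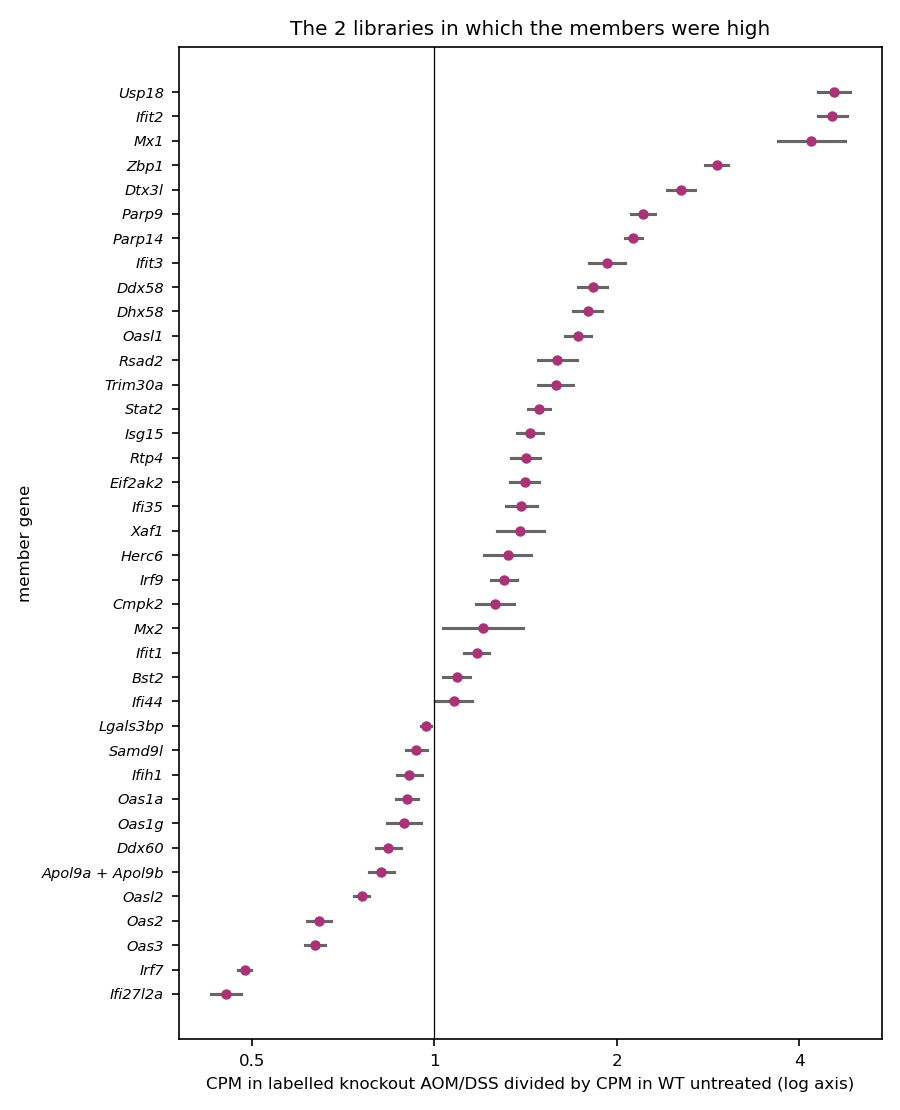
CPM in AOM/DSS labelled knockout divided by CPM in untreated WT for each member (points, log axis) with 95% counting intervals (bars). Ifi27l2a and Irf7 lie below 0.5, and Parp14, Parp9, Dtx3l, Zbp1, Mx1, Ifit2 and Usp18 lie above 2.

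The ligands were close to the limit of detection. Of 20 type I and III interferon genes, 17 had 0 counts in all 4 libraries, among them every Ifna gene listed, which allows up to 0.0947 to 0.138 CPM at 3 counts per library. Ifnz had 3 counts in untreated WT and 1 in AOM/DSS labelled knockout, where Ifnb1 had 1 count and Ifnl3 had 2. Ifng, the type II ligand, had 1 count in untreated WT, 0 in untreated labelled knockout, 8 in WT AOM/DSS and 101 in AOM/DSS labelled knockout (3.19 CPM). The last was at least 23.1-fold higher than its untreated counterpart, taking 3 counts as the floor there, and the exact counting interval of the ratio starts at 18.4-fold. Ifng thus exceeded 3 counts in both AOM/DSS libraries and in neither untreated library.

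The 6 receptor genes had median log2 ratios of 0.53 in the WT pair and 0.22 in the pair labelled knockout. Ifnar1 stood at 52.1 CPM in untreated WT, 56.3 CPM in untreated labelled knockout, 66.3 CPM in WT with AOM/DSS and 90.8 CPM in AOM/DSS labelled knockout, and Ifnar2 at 12.8, 15.2, 20.4 and 38.5 CPM. Ifnlr1, the type III receptor chain, stood at 15.4, 19.8, 23.6 and 27.6 CPM, and Il10rb at 80.3, 104, 132 and 73.1 CPM. The gamma receptor chains Ifngr1 and Ifngr2 stood at 144, 275, 199.9 and 110.3 CPM and at 141, 158, 181 and 157 CPM. Of the 6 receptor genes, 0 were called in the WT pair, and in the pair labelled knockout Ifnar2 was called higher and Ifngr1 lower. Jak1, Tyk2 and Jak2 were called in none of the 4 pairs.

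Among 6 inhibitors, 1 was called higher and 0 lower in the WT pair, and 2 higher and 0 lower in the pair labelled knockout. Over all genes, 4.08% were called higher and 3.88% lower in the WT pair, and 14.1% and 15.9% in the pair labelled knockout. Socs3, a feedback inhibitor induced mainly by interleukin 6 family cytokines, was higher with AOM/DSS in both genotypes. Its WT values were 14.8 and 97.6 CPM, and those labelled knockout 13.0 and 124 CPM. Socs1, the inhibitor of interferon receptors, stood at 1.63 CPM in untreated WT, 1.66 in untreated labelled knockout, 2.06 in WT AOM/DSS and 6.57 in AOM/DSS labelled knockout. Ptpn2, Ptpn6, Ptpn11 and Pias1 were called in none of the pairs. Of 13 genes that induce interferon, 1 was called higher and 0 lower in the WT pair, and 3 higher and 0 lower in the pair labelled knockout. Between labels, 1 was higher and 0 lower untreated (all genes 4.46% and 3.37%). With AOM/DSS 4 were higher and 1 lower (all genes 11.9% and 12.4%). Tmem173, which encodes the DNA-sensing adaptor STING, was called higher in all 4 pairs, at 7.74, 17.4, 23.9 and 163 CPM in the order used above. Tlr7 and Mb21d1 (cGAS) were the others called in the pair labelled knockout. Trim25, the ligase of RIG-I, stood at 281, 166, 158 and 275 CPM, with the same high libraries as the members. Ikbke, a kinase that activates interferon regulatory factors, stood at 65.2, 75.2, 77.4 and 89.0 CPM, and Irf3, the factor that starts interferon beta transcription, at 61.3, 65.9, 65.8 and 63.4 CPM. Neither was called in any of the 4 pairs.

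A second list of 47 interferon-stimulated genes outside the members was drawn up from knowledge of the pathway, with earlier results of these data known. It includes close relatives of members, such as Ifit3b, so it is not independent of them. In the WT pair 8 of 44 measured were called lower and 2 higher (median log2 ratio -0.58), and in the pair labelled knockout 25 of 45 higher and 0 lower (1.05). Untreated, 8 of 42 were lower and 0 higher in the library labelled knockout (-0.49), and with AOM/DSS 30 of 45 were higher and 0 lower (1.28). Over all genes, 3.88% were lower and 4.08% higher in the WT pair, and 14.1% higher and 15.9% lower in the pair labelled knockout. Untreated, 3.37% of all genes were lower and 4.46% higher, and with AOM/DSS 11.9% were higher and 12.4% lower. The medians of the list had the signs of the members' medians and were smaller in size. Rnf213, a large ubiquitin ligase, stood at 686 CPM in untreated WT, 295 in untreated labelled knockout, 257 in WT AOM/DSS and 1640.2 in AOM/DSS labelled knockout. Plac8 differed by less than 2-fold throughout, at 241, 257, 290.0 and 418 CPM, and Helz2, a helicase, stood at 339.9, 247, 202 and 360.1 CPM.

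Targets led by interferon gamma were listed apart, also with earlier results known, and the shares over all genes are those just given. Of 20 measured in the WT pair, 2 were called higher and 2 lower with AOM/DSS (median log2 ratio -0.01), while members had a median of -1.93. In the pair labelled knockout 20 of 21 were called higher (3.43). Untreated, 1 was higher and 3 lower in the library labelled knockout (-0.33), and with AOM/DSS 20 of 21 were higher (3.19). Gbp2, an interferon-induced GTPase, stood at 35.9 CPM in untreated WT, 46.7 in untreated labelled knockout, 39.9 in WT AOM/DSS and 1245 in AOM/DSS labelled knockout. Igtp, a further such GTPase, stood at 45.5, 26.2, 43.1 and 804 CPM, and Irf1, a transcription factor induced by interferon gamma, at 159, 188, 189.8 and 346 CPM. Gbp2 and Igtp were far higher in AOM/DSS labelled knockout than in any other library. Some genes of this list also had untreated WT above untreated labelled knockout and WT AOM/DSS, as the members did. Igtp did so narrowly, Gbp3 (54.7, 20.2, 12.4 and 279 CPM) and Gbp6 (25.4, 7.04, 7.70 and 241 CPM) more clearly. Others, such as Gbp2 and Irf1, did not. Whether the 2 lists differ beyond the spread between mice was not tested, since each group is 1 library.

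**Figure D5:**
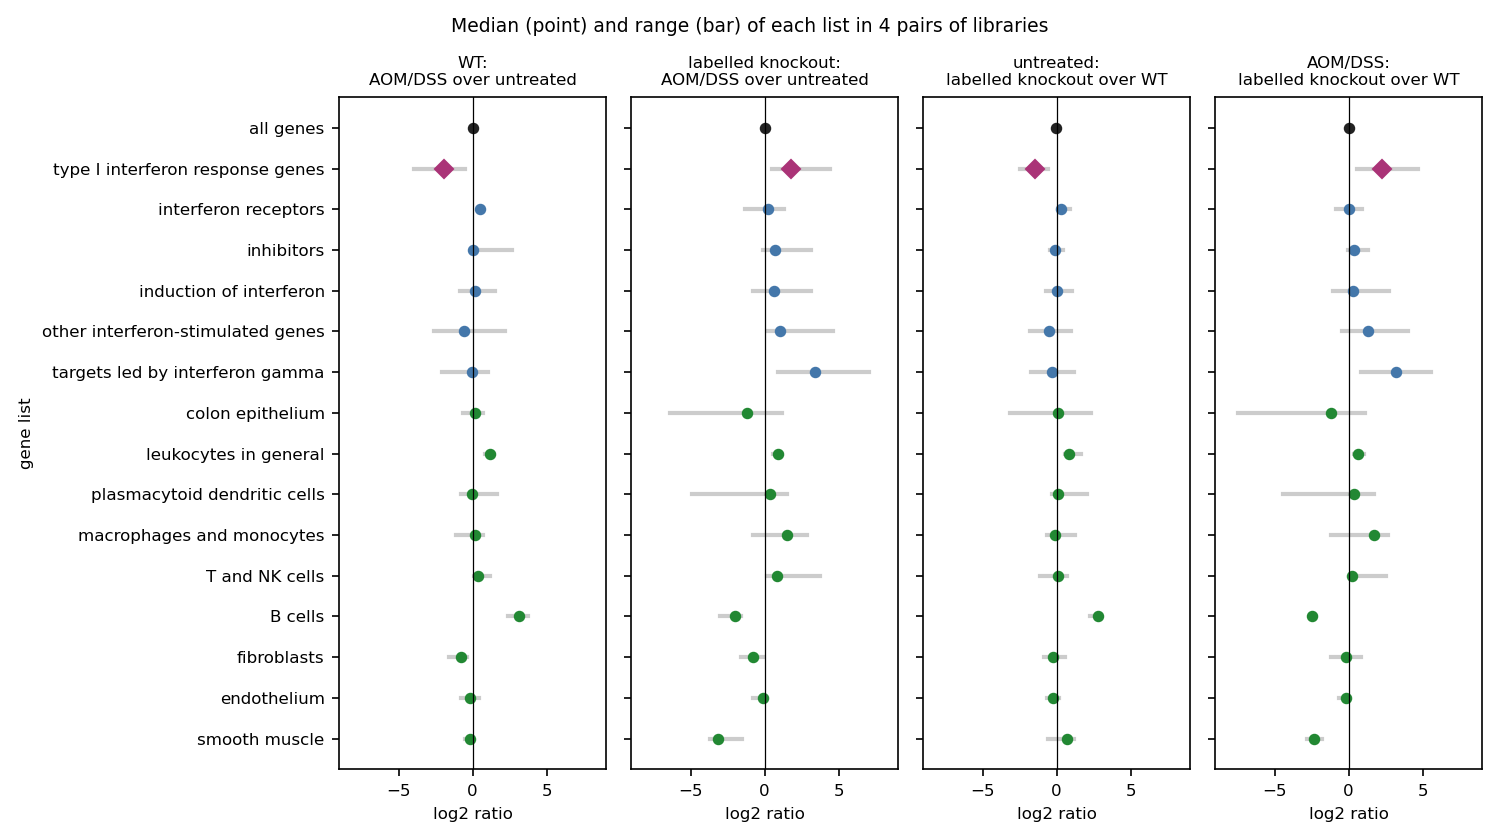
Median log2 ratio (points) and range from the lowest to the highest gene (grey bars) of each gene list in the 4 pairs, for lists with at least 3 measured genes in every pair (the kinases are not drawn); the range of all genes is not drawn. The members (diamonds) sit at -1.93, 1.80, -1.46 and 2.28, and targets led by interferon gamma at -0.01, 3.43, -0.33 and 3.19.

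Markers of cell types differed among the same libraries, and their part in the members' levels was not tested. General leukocyte genes, 6 of 6 with counts in every library, summed to 184 CPM in untreated WT, 326 in untreated labelled knockout, 418 in WT AOM/DSS and 655 in AOM/DSS labelled knockout, so untreated WT held the least. Macrophage and monocyte genes (9 of 9 detected) summed to 421, 482, 455 and 1273 CPM, and T and NK cell genes (9 of 9) to 39.8, 38.3, 54.1 and 115 CPM. Gzmb alone was 53.6 CPM of the T and NK sum in AOM/DSS labelled knockout, against 8.35 CPM in WT AOM/DSS. Of 7 T and NK genes measured in the AOM/DSS pair, 1 (Gzmb) was called higher and 0 lower. In the pair labelled knockout 8 of 9 macrophage genes were called higher, while in the WT pair 0 were higher and 1 lower. B cell genes (6 of 6) had the reverse arrangement to the members, at 8.41, 89.2, 117 and 16.6 CPM. Siglech, which defines plasmacytoid dendritic cells, the main source of interferon alpha in blood, was near 0 throughout, with 14, 12, 6 and 2 counts. Of the 10 genes of its list, 9 had counts in every library, and the summed level, 1286, 1107, 859 and 323 CPM, was mostly Klk1 in the first 3 of these libraries. Its level was 1136 CPM in untreated WT but 30.2 CPM in AOM/DSS labelled knockout, where Tcf4 at 147 CPM and Irf8 at 105 CPM, which other cells also express, made up most of the sum. Fat cell genes (5 of 5) summed to 153, 4.93, 53.6 and 3.28 CPM, fibroblast genes (6 of 6) to 1888, 1757, 1083 and 1075 CPM, and smooth muscle genes (5 of 5) to 6847, 7079, 5343 and 1049 CPM. Endothelial genes (5 of 5) lay between 146 and 176 CPM in all libraries, and neutrophil genes (7 of 7) summed to 3.97, 60.2, 396 and 251 CPM. Ly6g alone was 54.7 CPM (1189 counts) of the neutrophil sum in untreated labelled knockout, against 1 count in untreated WT. S100a8, S100a9, Cxcr2, Mmp8 and Retnlg had 2, 13, 1, 1 and 15 counts in untreated labelled knockout. Their counts in untreated WT were 1, 7, 2, 2 and 23. Csf3r had 87 counts in untreated labelled knockout and 64 in untreated WT.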

How the data were processed

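For 4 libraries the authors deposited 1 table of unnormalized counts, with gene symbols as rows. RNA was extracted with Trizol and sequenced on the Ion Proton platform, per the labels' protocols. The submitters' processing notes name build GRCm38 (mm10). Aligner, counter, annotation and strand were not given in the sources used here. The members and gene lists were chosen with earlier results of these data known.

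CPM used library totals times TMM factors from edgeR 4.0.16 in R 4.3.3. These were 0.9915 and 0.9473 for WT without and with AOM/DSS, and 0.9311 and 1.143 for the libraries labelled knockout. In 27 of the rows a symbol had become a date; they held at most 0.160% of a library. Calls used a pseudocount of 1 CPM, 50 counts in the higher library and a 2-fold difference. Printed folds carry no pseudocount and have exact conditional 95% intervals; those for ratios of folds use a normal approximation. Reads carried no molecular identifiers that would make them independent molecules, so intervals and floors cover counting error only. The calls and intervals were also run on simulated libraries that held counting error only. Those libraries had no spread between mice, so the run says nothing about that spread. Full values were given for the 2 most abundant members of each role, the extremes of each pair, members outside the common direction, and Card9; other members' levels were added after their values were seen. In the pathway lists, ligands, receptors, kinases, inhibitors and the 3 most abundant genes of other lists were named, and Tmem173, Tlr7, Mb21d1, Klk1, Tcf4 and Irf8 were added after their values were seen. Shared windows and exon overlaps came from GENCODE M21, promoters from RefSeq (GRCm38). Alternatives were DESeq2 1.42.0 size factors, upper-quartile factors, library totals, TMM on each pair, abundant genes (above 1%) left out, thinning to the smallest total, other pseudocounts, count minimums and folds, and other treatments of copies. TMM without the AOM/DSS library labelled knockout was chosen after seeing the data. The result for 1 gene of the pathway lists is not reported here.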

Additional observations from a re-analysis of the deposited data

Results flagged for a closer look

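The AOM/DSS comparison pointed in opposite directions in the 2 genotype labels, with 1 library on each side, so the difference was not tested. The median log2 ratio of the members was -1.93 in WT and 1.80 in the pair labelled knockout. The 26 members called lower in the first and higher in the second are given here by their fold in the pair labelled knockout divided by their fold in WT. This ratio was 146 for Usp18, 41.6 for Isg15, 12.4 for Trim30a and 11.6 for Herc6. Among the Ifit genes it was 62.5 for Ifit2, 51.8 for Ifit3 and 16.1 for Ifit1. In the oligoadenylate synthetase family it was 41.4 for Oas2, 36.1 for Oas3, 17.9 for Oasl2 and 8.10 for Oas1a. For the sensors it was 32.6 for Zbp1, 24.4 for Ddx60 and 21.3 for Dhx58, and for the transcription factors 6.04 for Stat2 and 4.88 for Irf9. Among the effectors it was 73.9 for Ifi44, 35.4 for Mx2, 32.8 for Rsad2, 23.0 for Rtp4, 22.6 for Bst2, 18.5 for Cmpk2, 18.1 for Mx1 and 13.4 for Xaf1. It was 77.6 for Apol9a and Apol9b together and 8.13 for Lgals3bp.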

How the results depend on the processing

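No called member changed sign in any of 1292 recomputed ratios, of which 168 moved beyond their counting interval. Of 203 recomputed counts, medians and shares, 191 stayed within 1.5 times (counts) or within a counting interval (medians and shares). Some of the 203 could not move, so this share is not a measure of stability. Medians do not use the fold cut-off, and all 38 members passed every count minimum. Counts in the direction that no member took stayed at 0. With a pseudocount of 5 CPM the median log2 ratio was -1.66 in the WT pair, 1.64 in the pair labelled knockout and -1.27 in the untreated pair, and the median difference of responses was 3.04. Scaling by library totals, which puts the median of all genes at 0.30 in the pair labelled knockout and 0.28 in the AOM/DSS pair, gave members 2.09 in the former and -1.55 in the untreated pair. At 4-fold in place of 2-fold, 18 members were lower in the WT pair (0.567% of all genes), 13 higher in the pair labelled knockout (3.94%), 6 lower in the untreated pair (0.599%) and 23 higher in the AOM/DSS pair (3.18%). The response element core followed by C was in 48.3% of member promoters (0.944% of all genes), the core followed by any base and C in 10.3% (0.914%), and TTCNNNGAA in 17.2% (9.55%). No paired analysis was possible because each group held 1 library. For the same reason no library could be left out within a group. Depth did not limit the members, while the interferon ligands were at or under 3 counts, except Ifng.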
